A study of Mus musculus with 9 samples.

Results

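The genes described here are 7 matrix metalloproteinases (Mmp8, Mmp9, Mmp12, Mmp13, Mmp14, Mmp19 and Mmp25), the transmembrane protease Adam8 and the inhibitors Timp1 and Timp2. They were taken by name, 10 of the 23238 gene symbols in the count files, in monocytes sorted from a mouse model of neuromyelitis optica (NMO). NMO is an autoimmune disease of the optic nerve and spinal cord in which antibodies (NMO-IgG) bind the astrocyte water channel aquaporin-4. Female wild-type C57BL/6N mice of 12 weeks received NMO-IgG purified from patients together with human complement, injected into the striatum on one side of the brain, and cells were collected on day 1. NMO_Br_mono libraries came from the brain and NMO_Bl_mono libraries from the blood of such mice, and Nor_Bl_mono libraries from the blood of normal mice without treatment, with 3 libraries per group and cells pooled from 5 mice in each. There was no control injection among these libraries, so the effect of the antibody cannot be told apart from that of surgery and injection, nor, for brain against normal blood, from that of the tissue. Brain cells were freed by enzyme digestion and a Percoll step, and blood cells were taken from a density gradient. Tissue and preparation thus cannot be told apart in brain against either blood group. The sort kept CD45+CD11b+P2ry12-Ly6C+Ly6G- cells, and so left out cells with the microglial protein P2ry12 or the neutrophil protein Ly6G at their surface.

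Matrix metalloproteinases are zinc-dependent enzymes that cut collagens, elastin, basement membrane proteins and many signalling proteins, and leukocytes use some of them when they cross vessel walls. Most are made as inactive precursors, so an mRNA level is no measure of enzyme activity. The tissue inhibitors of metalloproteinases (TIMPs) bind the active site of the mature enzymes. Adam8 belongs to a related family that sheds membrane proteins from the cell surface.

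All 8 enzymes carry a zinc-binding site in which 3 histidines hold the metal ion. The 33 bases that code for it in GENCODE transcripts of GRCm38 are shown for the 4 enzymes that were tested, to show what the metalloproteinases and Adam8 share, with the 3 histidine codons in capitals.
Mmp14: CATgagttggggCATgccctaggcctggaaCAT
Adam8: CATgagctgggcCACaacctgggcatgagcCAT
Mmp19: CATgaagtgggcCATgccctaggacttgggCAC
Mmp8: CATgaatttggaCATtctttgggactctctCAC
Of these 33 bases, Adam8 had 23 in common with Mmp14, Mmp19 had 25 and Mmp8 had 20. The histidine codons stood at the same places in all of them.

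The libraries differed in ways that bear on every value below. Total counts ranged from 7584649 to 10419647 per library, and 4567 to 11556 genes were detected. The library with the fewest genes was NMO_Bl_mono replicate 3, in which 9 of the 10 genes described here had 0 counts and Mmp8 had 9, and the next was NMO_Br_mono replicate 2 with 6473 genes. Of the 90 values of these genes, 45 were 0, 4 lay between 1 and 10 counts and 41 were over 10, so that a gene was often either well counted or not seen at all. Levels are given as CPM, counts scaled to a common library total after normalization by edgeR's TMM factors. A count of 0 allows up to 3 counts, or 0.271 to 0.429 CPM by library, and such limits cover counting error only. The authors called the libraries of a group independent biological replicates. The labels do not say whether the pools were sorted separately, or whether brain and NMO blood pools came from the same mice. The p-values measure the spread between these libraries.

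Mmp14 and Adam8 stood out in the NMO brain libraries. Both were higher in each of the 3 brain libraries than in any blood library. Mmp14 passed the test across all genes against normal blood only, and Adam8 passed it in neither comparison. Of the 10 genes, 5 were counted well enough to be tested (Mmp8, Mmp14, Mmp19, Adam8 and Timp2), among 10107 genes in 1 edgeR quasi-likelihood fit with Benjamini-Hochberg adjustment. In brain against NMO blood, 0 of the 5 were called at an adjusted p under 0.05, where 0.0198% of all genes tested were called higher, 0.228% lower and 0.247% in either direction. In brain against normal blood, 1 was called, higher in brain, where 0.0297% of all genes were called higher and 0.218% lower. At an unadjusted p under 0.05 with a fold change of at least 1.2, Mmp14 and Adam8 were higher in brain in both comparisons, 2 of the 5 tested. The share of all genes higher by that rule was 1.48% against NMO blood and 1.75% against normal blood, and the share lower, where 0 of the 5 lay, was 3.84% and 4.07%. The fitted fold change was above 0 for 4 of the 5 against NMO blood (51.4% of all genes tested) and for 5 of 5 against normal blood (46.3%), and for 2 of 5 between NMO blood and normal blood (42.4%). Mmp14, at 0 in 4 of 6 blood libraries, passed the filter on low counts only through the brain group in which it was high, so these counts are a description and nothing is read from them against the shares over all genes. The brain libraries also enter both comparisons, which are thus not independent. The median log2 fold change of the 5 genes was 0.64 against NMO blood and 0.54 against normal blood, where the median over all genes tested was 0.05 and -0.12. Each median of the 5 is the value of 1 gene, Mmp19 and Timp2 in turn, with standard errors of 1.87 and 1.89.

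**Figure D1:**
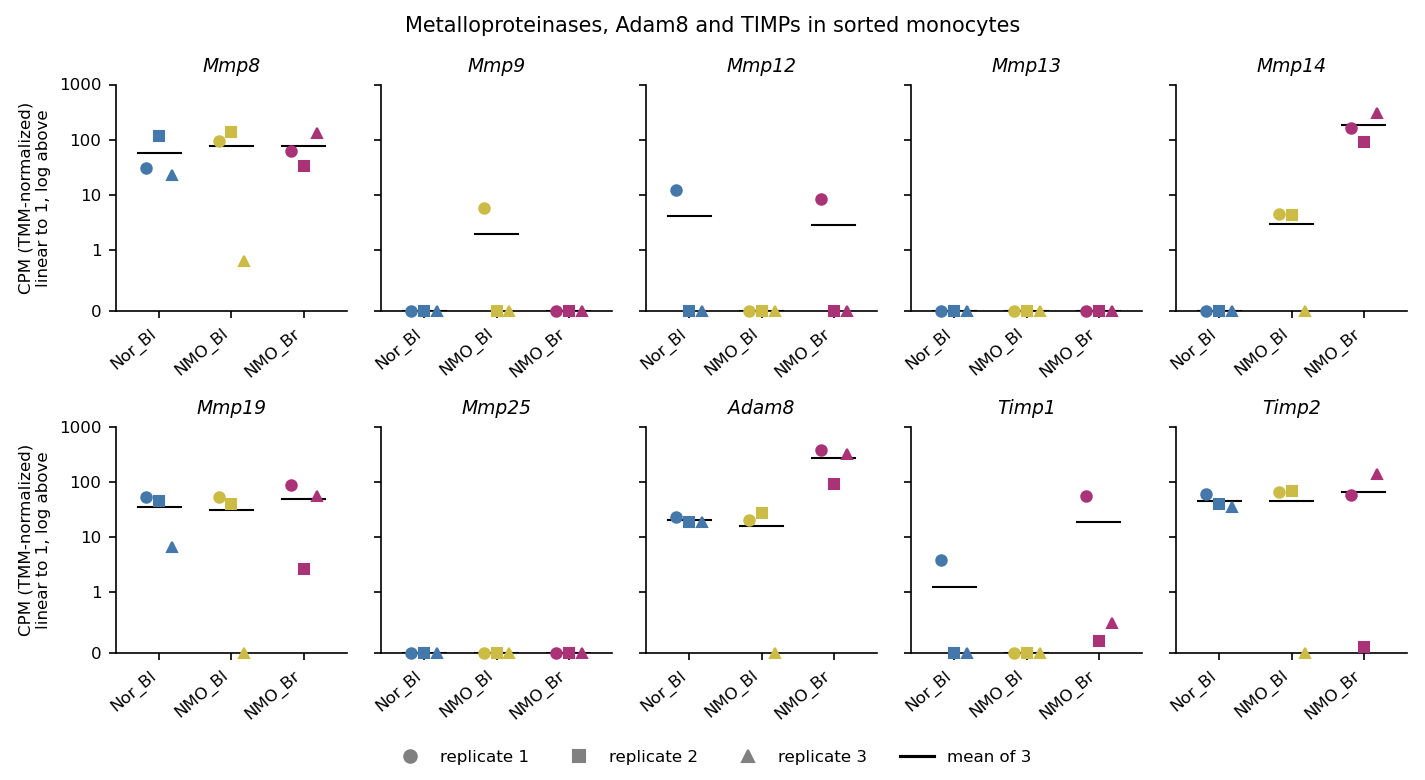
Normalized CPM of each of the 10 genes in the 9 libraries (vertical axis linear up to 1 and logarithmic above), by group, with 1 symbol per replicate and a bar at the mean of 3. Mmp14 and Adam8 lie higher in all 3 brain libraries than in all 6 blood libraries, while the other genes overlap between brain and blood or lie at 0, apart from Timp1 against NMO blood.

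Mmp14 codes for the membrane-anchored MT1-MMP, which cuts collagen at the cell surface and activates other metalloproteinases. The gene lies on chromosome 14 (GRCm38, chr14:54431612-54445364, plus strand). Its counts in brain were 1459, 965 and 3019 (replicates 1 to 3), in NMO blood 32, 40 and 0, and in normal blood 0, 0 and 0. These correspond to 164, 91.3 and 299 CPM in brain, 4.46, 4.33 and 0 CPM in NMO blood, and 0 CPM in each normal blood library. The lowest brain library was thus far above the highest blood library, and replicate 3 was the highest and replicate 2 the lowest of the brain libraries. The mean was 185 ± 105 CPM in brain (SD, n = 3) and 2.93 ± 2.54 CPM in NMO blood (SD, n = 3). Against NMO blood the ratio of means was 63.1, with a fitted log2 fold change of 5.98 ± 1.73 (SE), an unadjusted p of 0.00476 and an adjusted p of 0.458 by edgeR. Against normal blood Mmp14 was at least 528-fold higher in brain, taking each normal blood library at its limit of 3 counts, with an adjusted p of 0.0478 by edgeR.

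That call lay close to the threshold and rested on each library of the comparison. Leaving out any 1 of the 3 normal blood or 3 brain libraries put the adjusted p between 0.0642 and 0.230 (edgeR), while leaving out any 1 NMO blood library kept it between 0.00194 and 0.0382. It was also 0.0525 when the ribosomal RNA precursor Rn45s, which took 28.4% to 43.6% of all counts, was left out of the library sizes. Without both libraries that had the fewest genes (NMO_Bl_mono replicate 3 and NMO_Br_mono replicate 2), an alternative chosen after seeing the data, Mmp14 and Adam8 were called in both comparisons. Their adjusted p was then 0.0274 and 0.0104 against NMO blood, and 0.00352 for each against normal blood (edgeR).

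**Figure D2:**
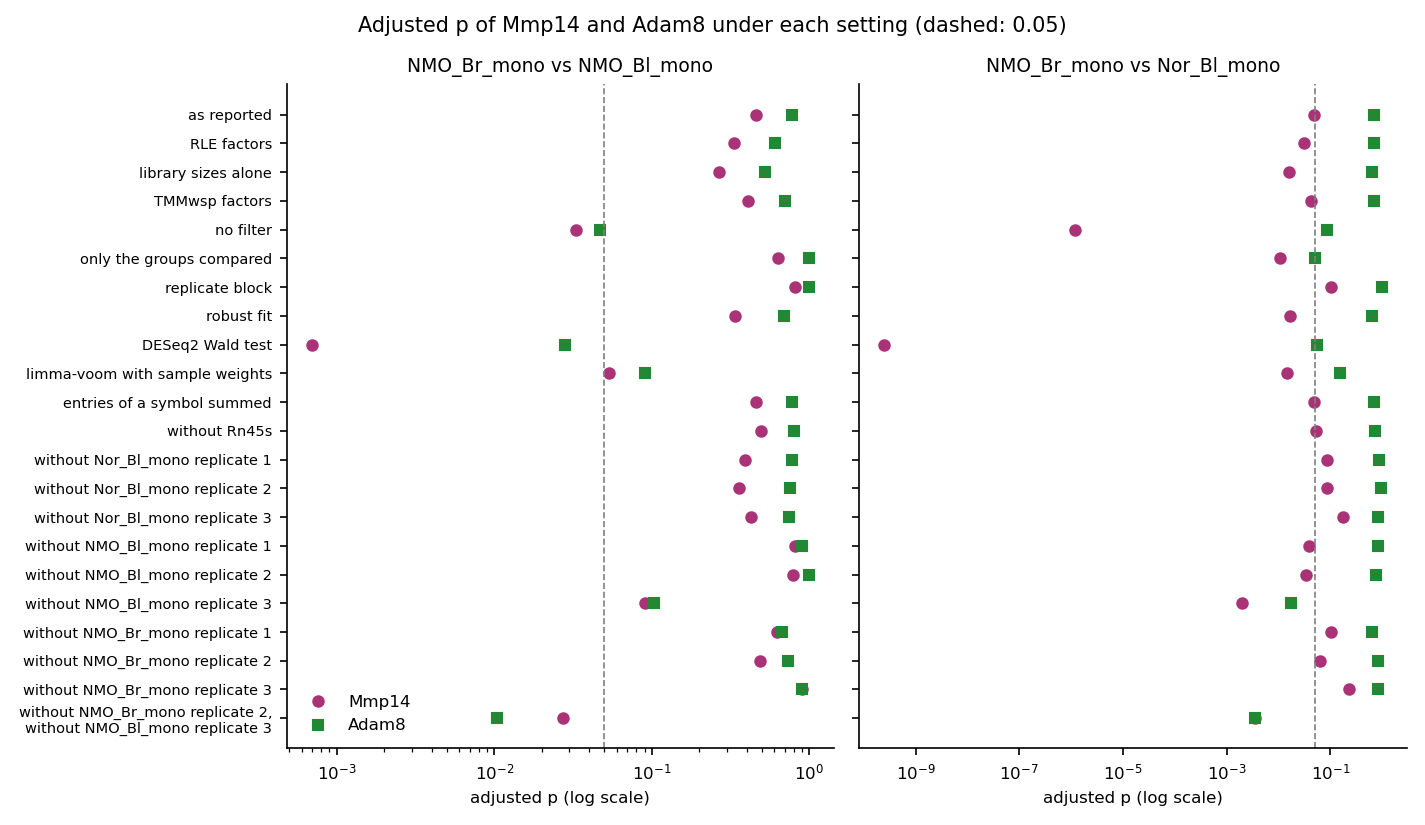
Adjusted p (logarithmic axis) of Mmp14 (circles) and Adam8 (squares) for brain against NMO blood (left) and brain against normal blood (right), as reported and under each alternative setting, with a dashed line at 0.05. As reported, Mmp14 lies at 0.458 on the left and just under the line, at 0.0478, on the right. On the left it goes under 0.05 with no filter, with DESeq2 and without the 2 libraries with the fewest genes. On the right it goes over 0.05 with a replicate block, without Rn45s, and without any 1 brain or normal blood library.

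Between the blood groups, Mmp14 was counted in 2 of 3 NMO blood libraries and in 0 of 3 normal ones. The mean of NMO blood was at least 8.37-fold higher than the limit of 3 counts in normal blood, with an unadjusted p of 0.00305 and an adjusted p of 1 (edgeR), and the groups overlapped at 0. It was the 1 gene of the 5 that passed the unadjusted rule here, where 0.465% of all genes did so in the higher direction and 0.247% in the lower. Mmp14 entered this test only because its brain libraries carried it past the filter on low counts, and with the 2 blood groups alone it was not tested, so nothing is read from that count. The adjusted test called 0 of 10107 genes here, 72 had an unadjusted p under 0.05, and DESeq2 called 72 genes at an adjusted p under 0.05.

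Adam8 codes for a metalloproteinase of leukocyte membranes with a disintegrin domain. The gene lies on chromosome 7 (GRCm38, chr7:139978932-139992562, minus strand). It had 3340, 962 and 3254 counts in brain, 144, 253 and 0 in NMO blood, and 156, 174 and 184 in normal blood. In CPM, the brain libraries had 376, 91.0 and 322, the NMO blood libraries 20.1, 27.4 and 0, and the normal blood libraries 22.3, 18.3 and 18.7. Unlike Mmp14, Adam8 was thus counted in 5 of 6 blood libraries, between 18.3 and 27.4 CPM, and at 0 in the NMO blood library with the fewest genes. The mean was 263 ± 151 CPM in brain, 15.8 ± 14.2 CPM in NMO blood and 19.8 ± 2.22 CPM in normal blood (SD, n = 3 each). The ratio of means was 16.6 for brain against NMO blood, with a log2 fold change of 4.05 ± 1.43 (SE), an unadjusted p of 0.0135 and an adjusted p of 0.778 by edgeR. Against normal blood it was 13.3, with a log2 fold change of 3.73 ± 1.41 (SE), an unadjusted p of 0.0193 and an adjusted p of 0.708 by edgeR. Without NMO_Bl_mono replicate 3, Adam8 was called against normal blood (adjusted p = 0.0175, edgeR).

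The 250 bases before the RefSeq start sites of Mmp14 and Adam8 are shown because these genes had the highest values in the same group of libraries (GRCm38.p6, each read along the strand of its gene, chr14:54431348-54431597 on the plus strand and chr7:139992563-139992812 on the minus strand). Capitals mark the GC box GGGCGG or its complement, searched on both strands.
Mmp14: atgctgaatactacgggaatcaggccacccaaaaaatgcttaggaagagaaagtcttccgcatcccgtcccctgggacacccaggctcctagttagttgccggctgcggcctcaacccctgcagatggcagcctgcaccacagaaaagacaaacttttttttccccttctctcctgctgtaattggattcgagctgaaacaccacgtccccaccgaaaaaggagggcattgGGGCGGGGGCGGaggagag
Adam8: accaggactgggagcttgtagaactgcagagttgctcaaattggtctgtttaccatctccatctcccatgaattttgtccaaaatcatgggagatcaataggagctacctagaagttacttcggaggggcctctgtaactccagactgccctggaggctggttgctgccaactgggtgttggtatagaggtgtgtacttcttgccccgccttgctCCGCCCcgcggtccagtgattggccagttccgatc
Mmp14 had 2 GC boxes, starting 19 and 13 bases before the start site, and Adam8 had 1 on the opposite strand, 35 bases before it. A GC box is present in 32.7% of 32851 RefSeq promoter windows of this length. Each window also held 2 CCAAT boxes, a motif of 33.8% of windows, and in Mmp14 the nearer one shared 1 base with a GC box. None of the 4 other motifs searched was found in either window, namely TGANTCA for AP-1 (6.75% of windows), GAGGAAGT for PU.1 (2.44%), GGGANTTCC for NF-kappa B (1.43%) and the TATA box TATAAA (12.4%). A match or its absence in these letters is a description of the sequence only.

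Mmp8, the collagenase stored in neutrophil granules, was the only one of the 10 genes with counts in all 9 libraries, and no test separated its groups. The gene is on chromosome 9 (GRCm38, chr9:7558456-7568485, plus strand). Its level was 61.6, 33.8 and 130 CPM in brain, 93.9, 139 and 0.813 CPM in NMO blood, and 29.9, 118 and 23.1 CPM in normal blood. The libraries of each group spread over most of the whole range, and the groups overlapped. The log2 fold change was -0.05 ± 1.30 (SE) for brain against NMO blood and 0.40 ± 1.30 against normal blood, and the adjusted p was 1 for both (edgeR).

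Mmp19 codes for a metalloproteinase with a wide range of matrix substrates, and most of its counts were matched by those of an overlapping gene. The gene (GRCm38, chr10:128790910-128800824, plus strand) ends inside Tmem198b, which lies on the other strand (chr10:128800036-128804370), and the exons of both share 789 bases at the 3ʹ end of Mmp19. QuantSeq reads come from the 3ʹ ends of transcripts, and whether counting used the strand was not stated. Mmp19 had 774, 27 and 544 counts in brain, 373, 368 and 0 in NMO blood, and 367, 421 and 65 in normal blood. Tmem198b had 639, 27 and 543 counts in brain, 362, 368 and 0 in NMO blood, and 358, 325 and 65 in normal blood. Both genes had the same count in 4 of 9 libraries, of which 1 was at 0 for both, and differed by at most 1 count in 5, and over all libraries Tmem198b had 91.4% of the counts of Mmp19. Mmp19 exceeded Tmem198b by 135 counts in brain replicate 1 and by 96 in normal blood replicate 2, so some reads were counted for Mmp19 alone, while most were matched by a count for Tmem198b and were not assigned to one gene here. The levels listed for Mmp19 overlapped between all groups, with 87.0, 2.55 and 53.8 CPM in brain, 51.9, 39.8 and 0 CPM in NMO blood, and 52.5, 44.2 and 6.60 CPM in normal blood. The log2 fold change was 0.64 ± 1.87 (SE) against NMO blood and 0.47 ± 1.87 against normal blood (adjusted p = 1 for both, edgeR).

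**Figure D3:**
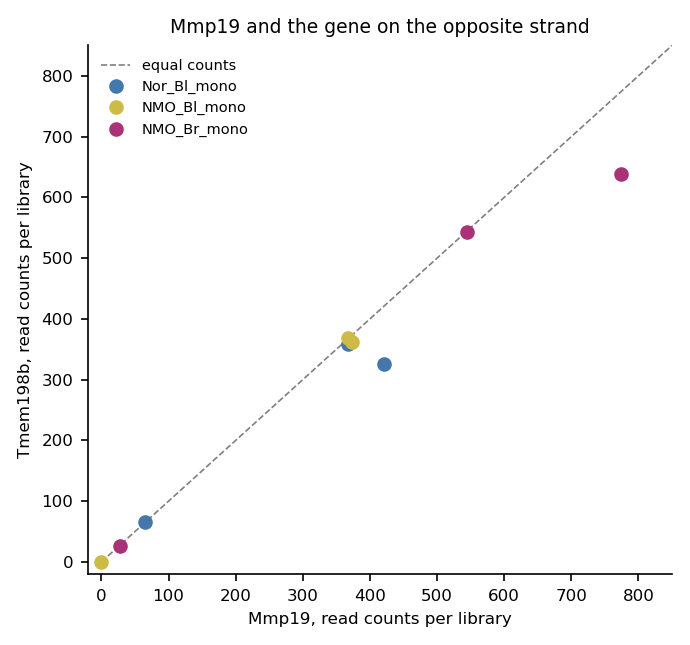
Read counts of Mmp19 (horizontal axis) and of Tmem198b, the gene on the opposite strand (vertical axis), with 1 point per library coloured by group and a dashed line at equal counts. Most libraries lie on or near the line, and the largest excess of Mmp19 is 135 counts, in a brain library.

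Of the remaining enzymes, Mmp9 was seen in 1 library, Mmp12 in 2, and Mmp13 and Mmp25 in none. Mmp9, or gelatinase B, had 41 counts in NMO_Bl_mono replicate 1 and 0 in the other 8 libraries. Mmp12, the macrophage elastase, had 85 counts in Nor_Bl_mono replicate 1 and 74 in NMO_Br_mono replicate 1, with 0 in the other 7. Mmp13, or collagenase 3, and Mmp25, a membrane-anchored enzyme of leukocytes, had 0 counts in all 9 libraries, which leaves them undetected at this depth rather than absent. Mmp12 overlaps Mmp1b on the opposite strand, which had 0 counts. Mmp8, Mmp12 and Mmp13 lie in 1 cluster of metalloproteinase genes (GRCm38, chr9:7272514-7699585), where 4 of the 9 genes listed had a count in any library.

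The inhibitors gave a mixed picture in brain. Timp1, a secreted inhibitor that binds most soluble metalloproteinases but MT1-MMP poorly, had 480, 2 and 5 counts in brain, 0 in each NMO blood library, and 26, 0 and 0 in normal blood (GRCm38, chrX:20870166-20874735, plus strand). All 3 brain libraries were thus above NMO blood, but this order rests on 2 and 5 counts in replicates 2 and 3, the former within the limit of 3, while the first replicate had 54.0 CPM. The mean of the brain libraries, 18.2 ± 31.0 CPM (SD, n = 3), was at least 53.9-fold higher than the limit in NMO blood and came almost wholly from replicate 1. Timp1 did not pass the filter on low counts, and in a fit with no filter its adjusted p was 0.671 against NMO blood and 0.952 against normal blood (edgeR).

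Timp2, which inhibits MT1-MMP and also takes part in its activation of pro-MMP2, was counted in 8 of 9 libraries (GRCm38, chr11:118301069-118355740, minus strand). Its level was 58.1, 0.0946 and 135 CPM in brain, 64.2, 68.5 and 0 CPM in NMO blood, and 59.5, 38.8 and 34.4 CPM in normal blood. The value of brain replicate 2 is a single count. The groups overlapped, and the log2 fold change was 0.54 ± 1.89 (SE) in brain against NMO blood and against normal blood (adjusted p = 1 for both, edgeR).

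Set against each other inside a library, Mmp14 counts exceeded the summed Timp1 and Timp2 counts in each brain library and in no blood library. The ratio of Mmp14 to the summed counts of Timp1 and Timp2 was 1.46 in brain replicate 1 and 2.20 in replicate 3. In replicate 2 it was 322, from 965 Mmp14 counts and 3 counts of Timp1 and Timp2, with a 95% interval of 110 to 1563 for counting error (exact Clopper-Pearson). In NMO blood it was 0.0694 and 0.0632 in replicates 1 and 2, and undefined in replicate 3, where both sides were 0. In normal blood it was 0 in each library, beside 339 to 442 counts of Timp1 and Timp2. Such a ratio does not depend on library scaling, but it is of 3ʹ read counts and not of proteins. The ratio leaves out the inhibitor Timp3, described below, which had 496, 140 and 1741 counts in brain. In replicates 1 and 3, Timp1 and Timp2 summed to 997 and 1370 counts, so with Timp3 added Mmp14 would not exceed the inhibitors there.

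**Figure D4:**
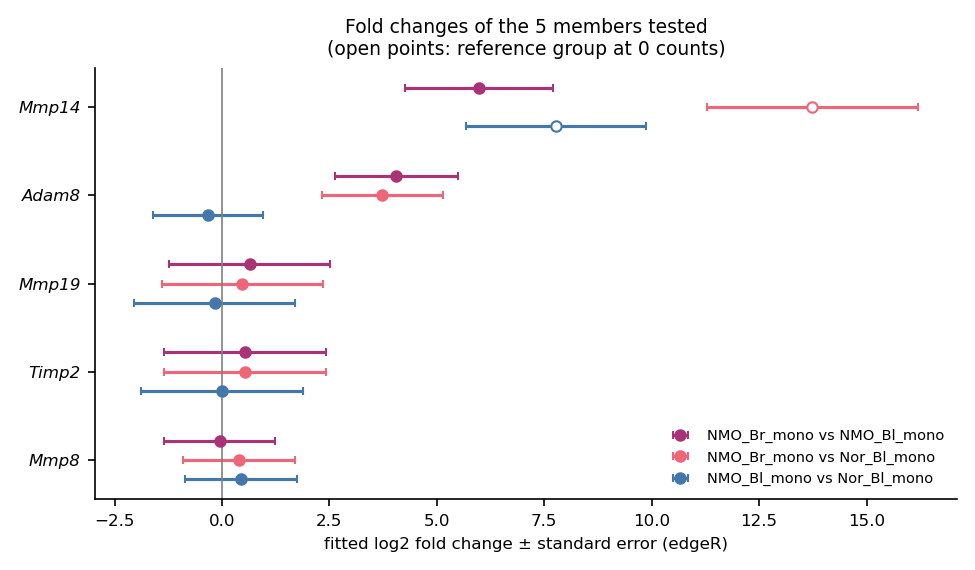
Fitted log2 fold change with its standard error (edgeR) of the 5 genes tested, for brain against NMO blood, brain against normal blood and NMO blood against normal blood. Open points stand for comparisons whose reference group had 0 counts, where the fitted value depends on the prior count, and the bars of Mmp8, Mmp19 and Timp2 cross 0 in each comparison.

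Counting all 10 genes by order alone, 3 were higher in every brain library than in every NMO blood library (Mmp14, Adam8 and Timp1), and 2 were so against normal blood (Mmp14 and Adam8). Of the 5 genes that were tested, these were Mmp14 and Adam8 in both comparisons, since Timp1 did not pass the filter and its lowest brain value, 2 counts, is within the limit of a 0. Among all genes tested, 6.30% lay wholly higher in brain against NMO blood and 6.07% against normal blood, shares that do not cover the untested genes. None of the 10 was wholly lower in brain, where 6.05% of all genes tested were so against NMO blood and 9.37% against normal blood. Between NMO blood and normal blood, 0 of 10 were apart in either direction, where 2.34% of all genes tested lay higher and 4.45% lower. That count depended on NMO_Bl_mono replicate 3, since without it 2 of 10 genes lay apart. Groups with fewer libraries lie apart more easily. The share over all genes was not determined without that library, so nothing is read from the 2.

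Markers of other cell types moved with the brain group, and their part in these results was not tested. In bulk samples, a change in the number of cells of a type and a change in RNA per cell cannot be told apart. The 12 monocyte markers summed to 6450 to 8237 CPM in normal blood, 4251 to 8343 in NMO blood and 4597 to 8614 in brain, so they overlapped between the groups. Of these, Ccr2, the chemokine receptor of inflammatory monocytes, was at 1290, 781 and 1126 CPM in brain and 89.3 to 687 CPM in blood, and Ly6c2, which codes for the sorted Ly6C, at 435, 59.1 and 198 CPM in brain and 460 to 928 CPM in blood. The 13 neutrophil markers measured summed to 451 to 2009 CPM in brain, 125 to 267 in NMO blood and 88.0 to 318 in normal blood. Their highest sum, 2009 CPM, was in brain replicate 2, where Mmp8, Mmp14, Mmp19, Adam8, Timp1 and Timp2 all had their lowest brain values. In at least 1 brain library 11 of the 13 were above the limit, and 4 were so in all 3. S100a8, an abundant granulocyte protein, was at 147, 808 and 388 CPM in brain and at most 138 CPM in blood, and S100a9, its partner, at 78.4, 656 and 430 CPM in brain and at most 125 CPM in blood. The granule enzymes of immature neutrophils Mpo and Elane were at 0, 53.0 and 117 CPM and at 0, 31.5 and 20.5 CPM in brain, against at most 10.4 and 2.72 CPM in blood. The chemokine receptor Cxcr2, a marker of mature neutrophils, was at or below 0.562 CPM in every library, Retnlg and Fcnb were at 0 in all brain libraries, and Ltf was at 0 in all blood libraries.

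The 10 microglia markers summed to 827 to 970 CPM in brain, with 6 of them above the limit in all 3 libraries, against 142 to 394 CPM in normal blood and 0.0904 to 242 CPM in NMO blood. P2ry12, by which the sort excluded microglia, was at 23.6, 69.3 and 9.89 CPM in brain and at 43.2, 34.8 and 0.914 CPM in normal blood, so these overlapped. Tmem119, a defining microglia marker, was at 77.9, 0 and 20.9 CPM in brain and at 0 in all blood libraries. The 7 endothelial markers summed to 312, 120 and 1075 CPM in brain (replicates 1 to 3), against 52.9 to 242 CPM in blood. Mmp8, Mmp14, Timp2 and the endothelial sum had the same order over the brain libraries, highest in replicate 3 and lowest in replicate 2. Adam8, Mmp19 and Timp1 were also lowest in replicate 2, the brain library with the fewest genes. An order over 3 libraries is a description, and its cause was not tested. In brain replicate 2, 3 of the 7 endothelial markers were above the limit, and Flt1 and Cldn5 were at 0. Border-associated macrophage markers summed to 55.3 to 179 CPM in brain and 107 to 553 CPM in blood. The 8 T and NK cell markers summed to 32.8 to 288 CPM in brain and 1647 to 2444 CPM in blood, and platelet markers to at most 39.4 CPM in brain and at least 132 CPM in blood.

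**Figure D5:**
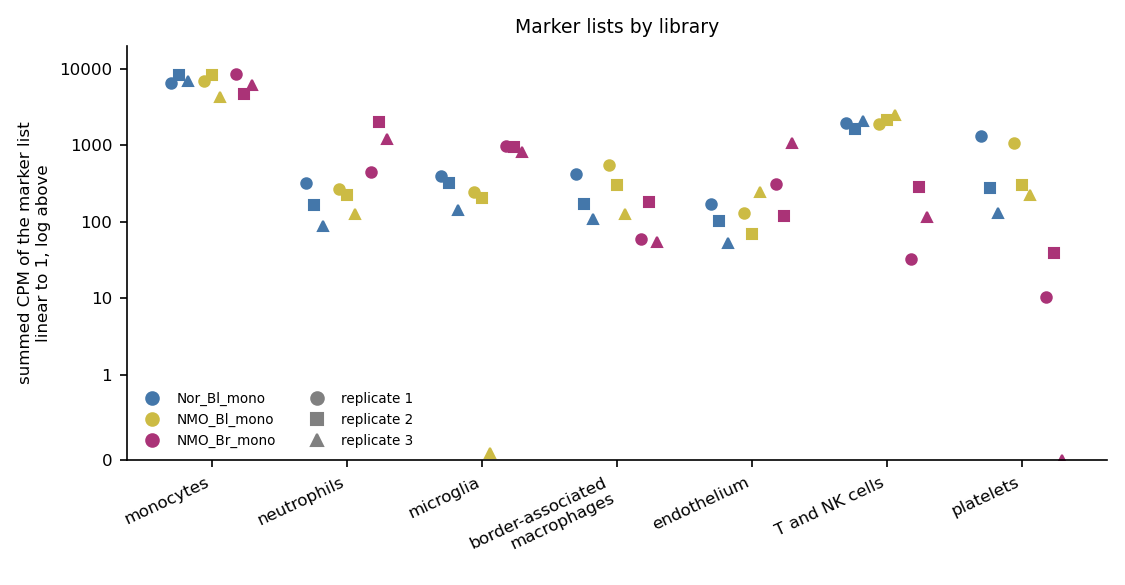
Summed normalized CPM of 7 marker lists in each library (vertical axis linear up to 1 and logarithmic above), coloured by group, with 1 symbol per replicate. Neutrophil and microglia sums are higher in the 3 brain libraries than in the 6 blood libraries, T and NK cell and platelet sums are lower, and monocyte sums overlap.

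Other genes of the same system were taken from 4 lists of 67 genes, which hold the other matrix metalloproteinases and inhibitors, ADAM and ADAMTS proteases, activating and serine proteases, and partners and receptors. Of these 67, 19 had 0 counts in all libraries and 33 were tested. In each of the 3 comparisons 0 were called at an adjusted p under 0.05 by edgeR. At an unadjusted p under 0.05, 3 were higher and 0 lower in brain against NMO blood, where 5.32% of all genes tested had such a p in either direction. That share was made up of 1.48% higher and 3.84% lower. Against normal blood 7 were higher and 0 lower, where the share of all genes was 5.82%, with 1.75% higher and 4.07% lower. Between NMO blood and normal blood 2 were higher and 1 lower, where the share was 0.712%, with 0.465% higher and 0.247% lower. Their median log2 fold change in brain was 0.89 against NMO blood and 0.97 against normal blood, where that of all genes tested was 0.05 and -0.12. Timp3, Adamts1 and Lcn2, named below, passed the filter on low counts only through the brain libraries in which they were high. These counts and medians are thus a description, and nothing is read from them against the values over all genes.

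Among the 19 other metalloproteinases and inhibitors, 11 had 0 counts throughout and 3 were tested. Timp3, an inhibitor held in the extracellular matrix, was at 55.8, 13.2 and 172 CPM in brain, 0, 1.30 and 0 CPM in NMO blood, and 0 in each normal blood library. Its brain libraries followed the same order as Mmp14. Timp3 was at least 230-fold higher in brain than the limit in normal blood, with an unadjusted p of 0.00292 and an adjusted p of 0.343 (edgeR).

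Of the 20 ADAM and ADAMTS proteases, 8 were tested. Adamts1, a secreted protease of proteoglycans, was at 13.9, 89.1 and 24.9 CPM in brain, 3.34, 0 and 0 CPM in NMO blood and 0 in each normal blood library. Its highest brain value was in replicate 2, where Adam8 and Mmp14 were lowest, and its adjusted p against normal blood was 0.708 (edgeR).

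Of the 15 activating and serine proteases, 9 were tested. Prtn3, a granule protease of immature myeloid cells, was at 6.97, 62.5 and 27.5 CPM in brain, 6.27, 13.1 and 99.0 CPM in NMO blood and 0 in each normal blood library. It thus overlapped between brain and NMO blood, and both were above normal blood (adjusted p = 0.332 for brain and 1 for NMO blood, edgeR).

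All 13 partners and receptors were tested. Lcn2, a granule protein that forms a complex with gelatinase B and is also on the neutrophil list, was at 54.0, 143 and 70.4 CPM in brain, 23.8, 46.6 and 0 CPM in NMO blood, and at most 0.105 CPM in normal blood (adjusted p = 0.224 for brain against normal blood, edgeR). Cd44, the hyaluronan receptor that MT1-MMP can cut, was at 1015, 1094 and 1143 CPM in brain, 568, 705 and 482 CPM in NMO blood, and 735, 1018 and 1010 CPM in normal blood. Brain and normal blood overlapped for Cd44, while NMO blood lay below both, with a log2 fold change of 0.89 ± 0.30 (SE) for brain against NMO blood and an adjusted p of 0.716 (edgeR). Lrp1, an endocytic receptor that clears metalloproteinases and TIMP complexes, was at 500, 431 and 303 CPM in brain, 232, 244 and 196 CPM in NMO blood, and 125, 205 and 202 CPM in normal blood. Cd63, a tetraspanin that binds Timp1 at the cell surface, was at 102, 126 and 147 CPM in brain, 10.2, 10.9 and 65.3 CPM in NMO blood, and 13.3, 4.10 and 13.3 CPM in normal blood. Both lay higher in every brain library than in every blood library, with an adjusted p against normal blood of 0.708 for Lrp1 and 0.695 for Cd63 (edgeR).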

How the data were processed

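RNA from sorted monocytes was sequenced as single-end QuantSeq 3ʹ libraries. The authors aligned the reads with Bowtie2 and deposited raw read counts per gene symbol, obtained with bedtools from unique and multiple alignments on mm10, which is GRCm38. Of 23282 entries per library, 35 symbols occurred more than once, and the entry with the highest counts was used, which left 23238 symbols, of which 8796 had 0 counts throughout.

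The counts were tested with edgeR 4.0.16 in R 4.3.3 (limma 3.58.1). TMM factors, edgeR's default filter on low counts by group, and a quasi-likelihood fit of all 9 libraries without covariates were used, so the 3 groups shared one estimate of the spread. Calls required an adjusted p under 0.05. Levels are normalized CPM, and a pseudocount of 1 was added for correlations. DESeq2 1.42.0, limma-voom, other scalings, other filters, a replicate block and the loss of each library were alternatives. Positions came from GENCODE M21 and promoters from RefSeq, which has no window for Mmp9 and Mmp19 in the table used.

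The 10 genes, the gene lists and the tests were chosen with earlier results of these data known. All 10 genes are named. A gene of the other lists is named only with an adjusted p under 0.05, or an unadjusted p under 0.05 and groups that do not overlap, in brain against either blood group. The 2 genes most like a member are named by Pearson's r where its mean reached 50 CPM in a group.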

Additional observations from a re-analysis of the deposited data

How the results depend on the processing

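Mmp14 and Adam8 had a positive log2 fold change in brain against both blood groups under each of 21 alternatives, from 5.40 to 6.41 (Mmp14) and 3.48 to 4.73 (Adam8) against NMO blood, and 11.7 to 14.1 (Mmp14) and 3.38 to 4.16 (Adam8) against normal blood. The calls moved more. For Mmp14 against normal blood, 13 of 21 alternatives kept the adjusted p under 0.05. Over the 21, the adjusted p ranged from 2.49e-10 (DESeq2) to 0.230 (edgeR without NMO_Br_mono replicate 3). With a replicate block it was 0.102 and the number of the 10 genes called fell to 0, as it did without Rn45s. Replicate numbers were shared between the groups, and deviations of same-numbered libraries correlated at -0.010 to 0.116. Between the blood groups each library correlated best with its own number (0.116, 0.0151 and 0.0692). Brain replicate 2 did not in either brain comparison (-0.0102 and 0.00034), nor did brain replicate 3 against normal blood (-0.0011). In each group replicate 1 had the highest share of Rn45s (39.3% to 43.6%). The labels do not say what the numbers share, so they were not taken as pairs in the main fit. Against NMO blood the number called rose from 0 to 2 (Mmp14 and Adam8) with no filter (adjusted p of 0.0329 and 0.0469, edgeR) and with DESeq2 (0.000693 and 0.0282). Over the whole table it rose too, from 25 genes to 110 of 14442 with no filter and to 334 with DESeq2. Between the blood groups DESeq2 called 1, Mmp14 (adjusted p = 0.0156). Mmp14 entered that test only through its brain libraries, so nothing is read from the call.

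Genes called over the whole table were 25 against NMO blood, and 110 with no filter, 16 with at least 10 counts in every library, 7 with only the groups compared, 334 with DESeq2, 51 with limma-voom and 15 to 36 with 1 library left out. Against normal blood they were 25, and 115 with no filter, 38 with a robust fit, 367 with DESeq2 and 11 to 62 with 1 library left out. Between the blood groups they were 0, and 2 with no filter and 72 with DESeq2. Without both libraries with the fewest genes, chosen after seeing the data, 61 and 107 genes were called against NMO and normal blood, 2 of the 10 genes in each, and 2 of the 10 lay apart between the blood groups. With 1 library left out, 0 to 2 of the 10 were called against normal blood, and 0 to 2 lay apart between the blood groups. For settings that left out libraries, shares over all genes tested were not determined. Nothing is read from these counts among the 10. No member passed the filter of 10 counts in every library.

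Fold changes near 0 changed sign. For Mmp8 against NMO blood the log2 fold change was 0.10 with RLE factors, 0.043 with library sizes alone, 0.038 with TMMwsp factors, 0.72 with the replicate block and 0.10 with DESeq2. For Timp2 limma-voom gave -0.62 against NMO blood and -0.22 against normal blood. Timp2 between the blood groups was 0.0065 with library sizes alone, 0.0088 with no filter, 0.077 with the replicate block, 0.41 with limma-voom and 0.012 without Rn45s, and limma-voom gave 0.11 for Adam8 and 0.12 for Mmp19. Without both libraries named above these were 0.59 for Timp2, 0.27 for Adam8 and 0.42 for Mmp19. With 1 library left out, or both of these, the ranges against NMO blood were -0.12 to 1.26 (Mmp19), -0.70 to 0.68 (Mmp8) and -0.59 to 1.14 (Timp2). Against normal blood they were -0.29 to 1.05 (Mmp19), -0.25 to 1.501 (Mmp8) and -0.59 to 1.14 (Timp2), and between the blood groups -0.98 to 0.27 (Adam8), -0.79 to 0.42 (Mmp19), -0.27 to 1.56 (Mmp8) and -0.46 to 0.59 (Timp2). The median brain ratio of Mmp14 to Timp1 and Timp2 counts was 2.20, and 1.83 to 161.9 with 1 brain library left out. The cause was not tested.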

Other observations

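The genes whose levels over the 9 libraries most resembled those of a member, by Pearson's r of log2(CPM + 1), are given as a description, since all share the same libraries and the same pattern of zeros. They were Mgl2, a macrophage lectin, and Serpina3k for Mmp14 (both r = 0.995), Ero1l (r = 0.979) and Txnl4a (r = 0.973) for Adam8, Leprotl1 (r = 0.996) and Sec31a (r = 0.994) for Timp2, and Ext1 (r = 0.971) and Tnfaip8 (r = 0.969) for Mmp8. Over the 6 pairs of these members, r was 0.838 for Mmp14 and Adam8, 0.749 for Mmp8 and Timp2, 0.701 for Mmp8 and Adam8, 0.487 for Adam8 and Timp2, 0.390 for Mmp8 and Mmp14, and 0.099 for Mmp14 and Timp2.

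Syn1, which lies across Timp1 on the opposite strand, had 53, 0 and 125 counts in normal blood, 35, 0 and 0 in NMO blood and 0 in each brain library. The Timp1 counts of the brain libraries had no counterpart in Syn1. Exon bases shared by Timp1 and Syn1 were not determined, so nothing is read from this on how strand was used in counting.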
